A study of Homo sapiens with 20 samples.

Results

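Of 19628 regions bound by HIF1A in hypoxia in at least 1 of 4 human cancer cell lines, 279 carried a peak in both lung lines, A549 and H460, and in neither colon line, HCT116 and RKO. These lung-only regions were selected on the hypoxia peak calls. Peaks of the 4 hypoxia lists that shared at least 1 bp were joined into a region, and a region was kept where an A549 and an H460 peak had been joined and no HCT116 or RKO peak had. The 279 regions made up 5.16% of the A549 regions (Wilson 95% interval 4.60 to 5.78) and 7.20% of the H460 regions (6.42 to 8.05). HIF1A binding had been measured by ChIP-seq, in which DNA fragments are recovered with an antibody to the protein and sequenced, in established lines from a colorectal carcinoma (HCT116), a colon carcinoma (RKO), a lung adenocarcinoma (A549) and a large cell carcinoma of the lung (H460). Each line was held for 24 h in normoxia, the ordinary culture atmosphere, or in hypoxia at 1% oxygen, in 2 biological replicates, and 1 input library of genomic DNA was made for every line. The authors merged the replicates before they called peaks, so the values below have no replicate error, and all intervals cover counting error only. The descriptions of the A549 and RKO input samples name each other's line, whereas the headers of the peak lists name the A549 input for A549 and the RKO input for RKO.

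HIF1A is the oxygen-regulated subunit of the hypoxia-inducible factor. When oxygen is plentiful it is hydroxylated and degraded, and when oxygen is scarce it accumulates, pairs with ARNT and binds hypoxia response elements (HREs), whose core reads ACGTG or, less often, GCGTG. Its well-known targets in most cell types include genes of glucose uptake and glycolysis. In epithelial cells the sites that a factor of this kind can reach also depend on open chromatin, which is kept accessible at distal elements by other factors such as AP-1, a dimer of FOS and JUN proteins that binds TGANTCA (N is any base).

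The sequences below carry the strongest of these sites. They are 7 of the 12 regions with the best mean signal rank over the A549 and H460 hypoxia lists (4 others overlap annotated exons), and the region closest to SLC2A1. All are on the plus strand of GRCh37, and capitals mark ACGTG or GCGTG or its reverse complement, CACGT or CACGC. The region of PPP1R3C lay 248 bp upstream of its start, those of RARA and LBH lay in introns of these genes, and that of SLC2A1 in an intron of the divergent transcript SLC2A1-DT.
PPP1R3C, chr10:93393000-93393148: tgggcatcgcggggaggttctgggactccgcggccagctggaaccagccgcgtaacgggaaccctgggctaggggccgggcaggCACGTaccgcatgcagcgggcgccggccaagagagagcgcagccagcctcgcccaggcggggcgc
RARA, chr17:38468702-38468851: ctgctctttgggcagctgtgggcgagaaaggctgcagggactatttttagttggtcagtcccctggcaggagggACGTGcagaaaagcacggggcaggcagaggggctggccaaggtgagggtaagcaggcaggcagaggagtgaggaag
ENSG00000260237, chr16:80061210-80061356: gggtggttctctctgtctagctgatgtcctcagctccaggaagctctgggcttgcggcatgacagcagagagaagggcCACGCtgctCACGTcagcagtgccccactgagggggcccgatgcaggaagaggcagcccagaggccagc
DUSP12, chr1:161706223-161706369: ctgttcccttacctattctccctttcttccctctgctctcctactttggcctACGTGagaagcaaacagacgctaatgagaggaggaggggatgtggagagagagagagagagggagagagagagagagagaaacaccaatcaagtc
ISCA1, chr9:88902039-88902194: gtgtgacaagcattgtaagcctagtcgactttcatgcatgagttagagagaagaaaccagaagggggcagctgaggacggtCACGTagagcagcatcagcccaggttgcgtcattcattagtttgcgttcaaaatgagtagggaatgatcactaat
LBH, chr2:30496230-30496376: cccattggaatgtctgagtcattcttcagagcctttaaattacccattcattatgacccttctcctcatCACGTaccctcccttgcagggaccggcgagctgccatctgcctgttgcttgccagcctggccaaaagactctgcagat
PDE10A, chr6:166419702-166419858: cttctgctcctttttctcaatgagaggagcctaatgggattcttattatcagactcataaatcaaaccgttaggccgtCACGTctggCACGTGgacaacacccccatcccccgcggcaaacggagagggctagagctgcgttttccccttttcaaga
SLC2A1, chr1:43428403-43428555: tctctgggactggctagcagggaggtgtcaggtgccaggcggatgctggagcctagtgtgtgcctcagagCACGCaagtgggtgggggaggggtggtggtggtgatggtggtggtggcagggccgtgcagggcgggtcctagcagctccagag

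Each of the 8 sequences held at least 1 core within the called interval. The PDE10A region held 3 matches, a pair of which came from the palindrome CACGTG, which is an ACGTG on each strand. In the LBH region an AP-1 heptamer (tgagtca) lay upstream of the core.

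The strength of binding at the 279 regions is given first as a description, because the same peak calls selected them. The signal counts the sequenced tags of a peak per 10000000 tags of its library (tags per 10 M, where 1 M is 1000000). In A549 it ran from 2.79 to 73.4 with a median of 8.80 (95% interval of the median 7.73 to 9.88), and in H460 from 3.03 to 122.7 with a median of 10.1 (8.09 to 11.5). Lung-only regions were therefore above the median peak of either list, which was 3.87 in A549 and 6.47 in H460, and below regions called in all 4 lines, whose medians were 23.0 in A549 and 27.0 in H460. Regions that a lung line shared with 1 colon line only were also above these list medians. Those shared with HCT116 had medians of 8.375 in A549 (7.30 to 10.1) and 9.91 in H460 (8.49 to 10.9). Those shared with RKO had medians of 7.30 in A549 (6.66 to 9.02) and 8.39 in H460 (7.28 to 9.71). The A549 peak was in the strongest quartile of its list at 166 regions (59.5%) and in the weakest at 24, and the H460 peak at 117 (41.9%) and 43. In unscaled tags the medians were 41 in A549 (13 to 342) and 50 in H460 (15 to 607), from merged hypoxia libraries of 46.6 M and 49.5 M tags.

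**Figure D1:**
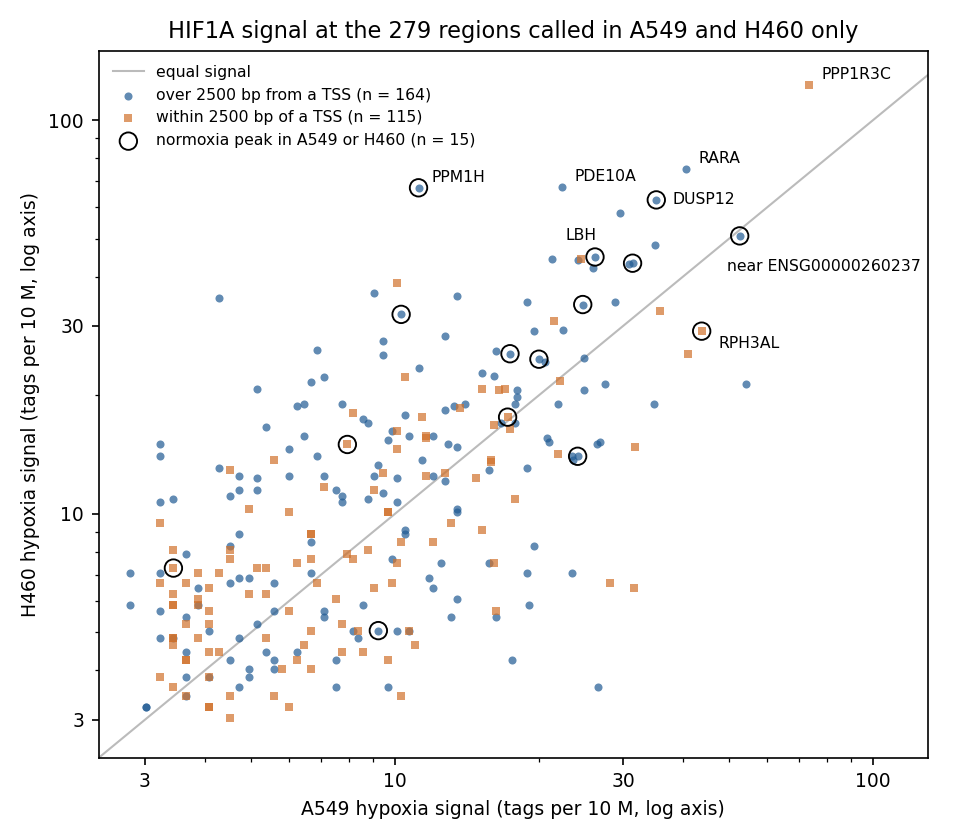
HIF1A signal of each of the 279 lung-only regions in A549 (x axis) and H460 (y axis) in hypoxia, in tags per 10 M on log axes, with squares for regions within 2500 bp of a transcription start site (TSS), circles for the rest, and rings for the 15 regions with a normoxia peak in A549 or H460. PPP1R3C was highest in both lines (73.4 and 122.7), and 171 of the 279 points lay above the line of equal signal.

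The strongest region was at the promoter of PPP1R3C, which encodes a subunit that directs protein phosphatase 1 to glycogen. It held 73.4 tags per 10 M in A549 and 122.7 in H460, where it was peak number 2 of the whole list, and the nearest colon-line hypoxia peak was 71104 bp away. The region in an intron of RARA, the retinoic acid receptor alpha gene, 3346 bp downstream of the start, came next with 40.6 in A549 and 75.0 in H460. These were followed by an intergenic region on chromosome 16 that lay 13276 bp upstream of the lncRNA gene ENSG00000260237, with 52.6 and 50.8, and by a region 13254 bp upstream of DUSP12, a dual-specificity phosphatase gene, with 35.2 and 62.7. Only the PPP1R3C region of these 4 was a promoter. Of those that came next, the region at chr7:46018034-46018185, in an intron of the lncRNA gene ENSG00000237471 and 56635 bp upstream of IGFBP3 (an insulin-like growth factor binding protein), held 35.0 in A549 and 48.3 in H460. A region in a noncoding exon 44839 bp upstream of LPCAT1, which encodes a phospholipid acyltransferase, held 29.6 and 58.0. The region 4101 bp upstream of ISCA1, a gene of mitochondrial iron-sulfur cluster assembly, held 31.4 and 43.3. Of the last 4, the UTR of FGF11 held 35.9 and 32.8, the start of RPH3AL-AS2 within RPH3AL held 43.8 and 29.1, and LBH, a transcription cofactor gene, held 26.2 and 44.9 in its intron. PDE10A, which encodes a phosphodiesterase of cAMP and cGMP, had 22.3 and 67.7 at a region 18176 bp upstream. The other promoters that complete the strongest 6 were at the lncRNA gene ENSG00000283973 near SLC2A1 (24.5 and 44.3), LINC01275 (41.0 and 25.5) and STC1, a secreted glycoprotein gene, in its UTR (21.5 and 30.9).

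The lines ranked the regions alike only in part. Across the 279 regions the log2 signals of A549 and H460 had a Pearson r of 0.65 and a Spearman rho of 0.62, against 0.81 and 0.81 over the 232 regions called in all 4 lines; the points share their 2 libraries and are not replicates. The H460 signal was the higher in 171 regions (61.3%), and the ratio of H460 to A549 had a median of 1.20 and ran from 0.137 to 8.25. A similar lean to H460 was present in the regions called in all 4 lines. Their median log2 ratio was 0.207 (0.133 to 0.310), against 0.264 (0.094 to 0.418) in the lung-only regions. Regions that A549 and H460 shared with HCT116 had 0.169 (-0.006 to 0.341), and those shared with RKO -0.089 (-0.353 to 0.167). These last intervals included 0. The extremes were named after their values were seen. The lowest ratio was in an intron of SHB, a signalling adaptor gene, with 26.6 in A549 and 3.64 in H460, followed by FADS1, a fatty acid desaturase gene, with 31.6 and 6.47. The highest was 15207 bp upstream of BNIP2 with 4.29 and 35.4, followed by PPM1H, a protein phosphatase gene, with 11.2 and 67.3. The centres of the A549 and H460 peaks were a median of 18 bp apart (0 to 142).

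The boundary of the set was set by calling thresholds that differed between lines. A549 and H460 peaks needed a fold over input of more than 13 and 14, whereas more than 7 and 6 was enough for HCT116 and RKO peaks. Just inside were 2 regions with an A549 fold of 13.11 (AGAP1 and the lncRNA gene ENSG00000286697) and 3 with an H460 fold of 14.24 (STK40, ENSG00000289489 and ENSG00000258386). The smallest overlap between an A549 and an H460 peak was 1 bp, near GASAL1, and just outside were pairs of peaks 0 bp apart near FAM216B and 1 bp apart near ENSG00000255143. A colon-line peak lay close to a few members: the region near SCAND3 was 4 bp from an RKO peak and 14 bp from an HCT116 peak, that near NAALADL2 was 70 bp from an RKO peak, and that near NAA25 86 bp from an HCT116 peak.

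The absence of a colon-line call at a lung-only region was further described by neighbouring peaks and by levels. A hypoxia peak of HCT116 or RKO lay within 1000 bp of 19 regions (6.81%) and within 50000 bp of 131 (47.0%), and 148 regions (53.0%) had none at that distance. A region called in 3 or 4 lines lay within 50000 bp of 16, and another lung-only region within 50000 bp of 4. At regions called in all 4 lines the colon signals were lower than the lung signals, with a median ratio of 0.581 for HCT116 to A549, 0.503 for HCT116 to H460, 0.453 for RKO to A549 and 0.384 for RKO to H460. When lung-only signals were scaled by these ratios, 269 of 279 (96.4%) were above the weakest HCT116 peak (2.09 tags per 10 M) and 238 (85.3%) above the weakest RKO peak (1.94), and 208 (74.6%) and 158 (56.6%) were above the median peak of HCT116 (3.07) and RKO (3.29). This scaling was added after the values were seen, and the colon lines' own tag numbers at these positions were not used here. Its ratios came only from regions that the colon lines had also called, and a call also depended on the fold over input. Whether a colon-line peak would be called at such a scaled level was thus not tested.

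Lung-only regions were near a gene start less often than regions shared by other pairs of lines. A TSS of a protein-coding or lncRNA gene was within 2500 bp of the centre in 115 of 279 regions (41.2%, 35.6 to 47.1), against 27.0% of all 19628 regions. The share was 71.1% of the 284 regions shared by HCT116 and H460 only, 72.2% of the 504 regions shared by RKO and 1 other line, 56.1% of the 164 shared by HCT116 and A549 only and 73.7% of the 232 regions called in all 4 lines. The difference was -29.9 percentage points against HCT116 and H460 (Newcombe 95% interval -37.4 to -21.9), -31.0 against the pairs with RKO (-37.7 to -23.9), -14.9 against HCT116 and A549 (-24.1 to -5.25) and -32.5 against the 4-line regions (-40.2 to -24.1). None of these 4 intervals included 0. Compared with regions that A549 and H460 shared with HCT116 as well, of which 52.6% were near a TSS, the difference was -11.4 points (-21.0 to -1.58). The thresholds bore on this share. With a fold of at least 14 in every list the colon lists shortened, 416 regions were lung-only and 51.7% of them lay within 2500 bp of a TSS. At that fold the difference was smaller but still below 0, at -19.8 points (-27.9 to -11.0) against HCT116 and H460 only. Against the pairs with RKO it was -21.7 points (-29.3 to -13.3).

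**Figure D2:**
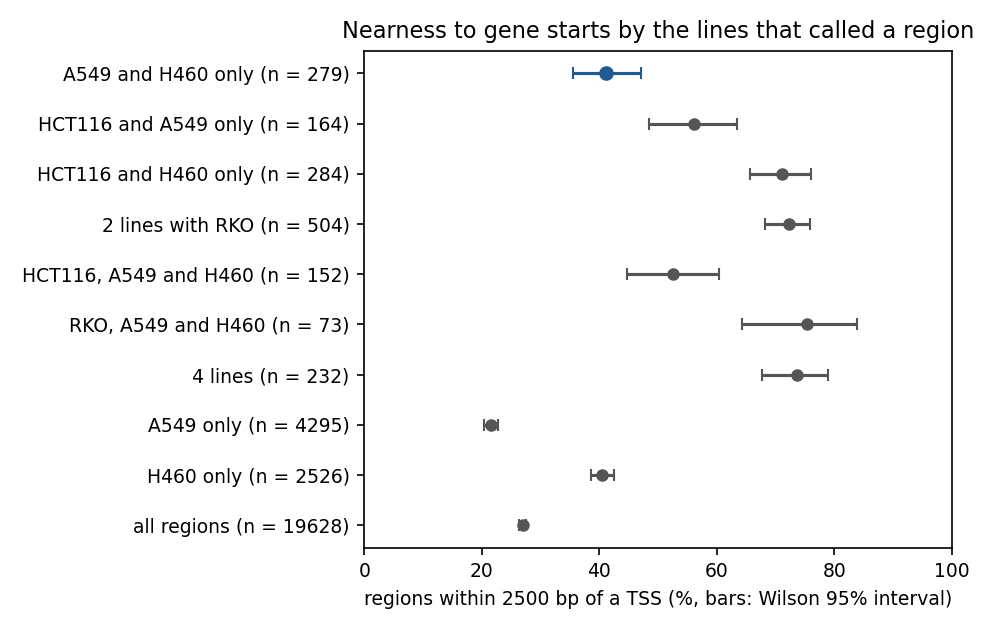
Share of regions within 2500 bp of a TSS (x axis, percent), by the lines in which the region was called in hypoxia, with Wilson 95% intervals as bars and the number of regions in each label. The lung-only regions were at 41.2%, below the other sets plotted that were called in 2 or more lines (52.6% to 75.3%) above the regions of A549 alone (21.5%) and close to those of H460 alone (40.5%).

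By annotation, the centre was in an intron in 130 regions (46.6%), between genes in 87 (31.2%), in a UTR in 30, in a noncoding exon in 24 and in a coding exon in 8. Of the 164 distal regions, defined as those over 2500 bp from a TSS, 38 were within 10000 bp, 82 between 10000 and 50000 bp, 29 between 50000 and 100000 bp and 15 beyond that. The 115 proximal regions were mostly at the start itself, with 62 within 250 bp, and the nearest gene was protein-coding for 75 and an lncRNA for 40. Distal regions were the stronger, with medians of 9.77 in A549 and 12.5 in H460 against 7.52 and 7.28 for proximal ones, given as a description. The chromosomes were not evenly used, which was noticed after the values were seen. Chromosome X held 17 of the 279 regions (6.09%, 3.84 to 9.54), 11 of them proximal, among them the promoters of RNF113A, GABRE and ZMYM3. It held 1.41% of the regions of HCT116 and H460 only and 1.19% of the pairs with RKO, with differences of 4.68 points (1.57 to 8.24) and 4.90 points (2.26 to 8.41). The share of chromosome X in the whole list of each line was 2.51% in A549, 2.73% in H460, 2.26% in RKO and 0.701% in HCT116, and the part that the number of copies of chromosome X has in this was not tested.

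The HRE core was present in most lung-only regions. ACGTG or GCGTG, searched on both strands, was present in the central 200 bp of 248 of 279 regions (88.9%, 84.7 to 92.1), against 23.5% of windows of the same length 2000 bp to either side and 44% of all 19628 regions. The share was 88.4% in regions of HCT116 and H460 only (difference 0.509 points, -4.81 to 5.81) and 87.5% in the pairs with RKO (1.39 points, -3.58 to 5.88), and higher, at 97.8%, in regions called in all 4 lines (-8.96 points, -13.4 to -4.73). The control sequences ACGAG or GCGAG, which have the same GC content and also contain CpG, were found in 36.2% of lung-only windows and 19.5% of their flanks, and in 26.1% of all regions. Cores lay at the summit. The core nearest to the region centre was a median of 12 bp from it, within 25 bp in 179 of 248 regions (72.2%) and within 50 bp in 234 (94.4%).

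**Figure D3:**
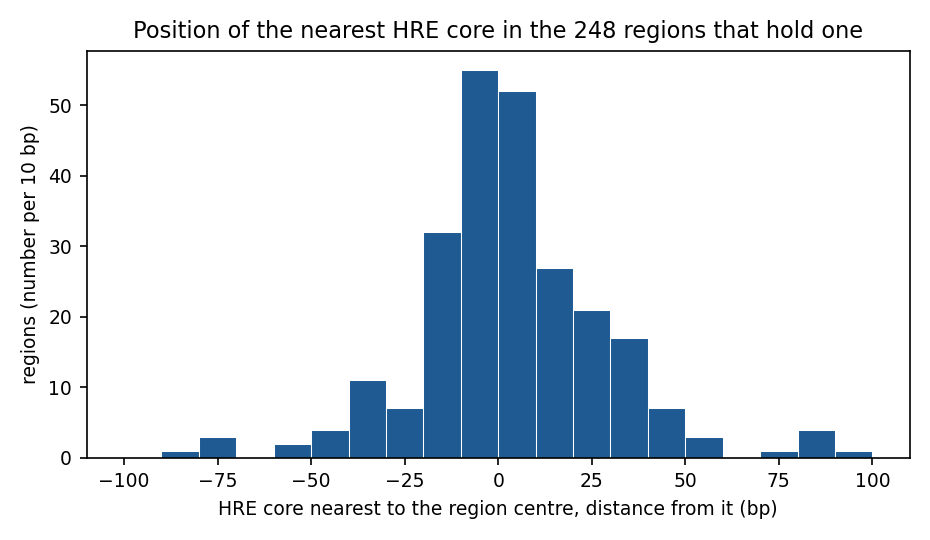
Distance from the region centre to the HRE core nearest to it (x axis, bp) for the 248 lung-only regions with a core in the central 200 bp, counted per 10 bp (y axis, number of regions). The distances gather around 0, with 179 of 248 cores within 25 bp.

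Most regions had few cores. There was 1 match in 124 regions, 2 in 68, 3 or more in 56 and none in 31. The most, 9, were at the start of CRYBB2P1, a noncoding gene (10.1 in A549 and 38.6 in H460), and 7 were in an intron of EYA2, a transcriptional coactivator gene (24.1 and 44.1); both were named after their values were seen. More cores did not go with more signal: the medians were 9.77 in A549 and 10.8 in H460 with 1 core, 9.45 and 12.5 with 2, and 9.77 and 8.90 with 3 or more. The 31 regions without a core were weaker, with medians of 4.08 in A549 (3.22 to 28.1) and 5.66 in H460 (3.24 to 35.8) against 9.45 and 11.0 in the 248 with a core. This group included an intron of NFKB1, a subunit gene of NF-kappa-B, 1047 bp from its start (4.51 and 7.68).

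The form of the core differed from that at regions of HCT116 and H460 only. ACGTG was present in 72.8% of lung-only windows (10.2% of flanks, 28.4% of all regions) and GCGTG in 40.9% (14.5% of flanks, 25.2% of all regions). Against HCT116 and H460 only, ACGTG was more frequent by 13.3 points (5.44 to 20.8) and GCGTG less frequent, with a difference of -18.3 points (-26.2 to -10.1). Part of this went with position, since ACGTG was in 79.3% of distal but 63.5% of proximal windows and GCGTG in 32.3% and 53.0%. Among distal regions alone the differences were 13.4 points (1.83 to 25.5) for ACGTG and -21.3 points (-33.7 to -8.27) for GCGTG, and among proximal regions alone 6.55 points (-4.72 to 17.3) and -8.34 points (-19.5 to 2.88), where both intervals included 0. Against the pairs with RKO, GCGTG differed by -10.7 points (-17.8 to -3.43) and ACGTG by 6.29 points (-0.505 to 12.8), and within distal or proximal regions neither difference had an interval that left out 0 (distal GCGTG -5.54 points, -16.2 to 5.14, and distal ACGTG 8.55 points, -1.16 to 18.3). Against HCT116 and A549 only, ACGTG differed by 9.35 points (0.450 to 18.4) and GCGTG by -7.31 points (-16.8 to 2.22). Regions called in all 4 lines held ACGTG more often than lung-only regions did, at 91.4% (-18.6 points, -24.9 to -12.1). The E-box CACGTG, which contains ACGTG on both strands, was in 7.53% of lung-only windows, 3.05% of flanks and 5.68% of all regions, and was less frequent than in the pairs with RKO (-7.75 points, -12.0 to -3.06).

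The bases next to the core also differed from those in the flanks. Of the 479 matches in lung-only windows, 35.1% had T before the core and 41.1% had C after it, against 16.2% and 15.6% of the 173 matches in the flanks. The first base of the core was A in 59.9% of matches, against 45.1% in the flanks. It was A in 43.8% of matches at HCT116 and H460 only, 53.6% in the pairs with RKO and 59.6% in regions called in all 4 lines. C after the core was about as common in these sets (43.0%, 44.6% and 49.6%). The windows were also less rich in CpG than in these sets, with a median GC content of 56.5% and 7 CpG in 200 bp. At HCT116 and H460 only the medians were 69.0% and 20, and in the pairs with RKO 65.5% and 18. Regions called in all 4 lines had 67.5% and 21. Regions that A549 and H460 shared with HCT116 had 61.75% and 11, those shared with RKO 61% and 14, and all regions 49% and 3. Distal lung-only windows had 51.5% and 4.5, against 62% and 12, 57% and 8.5 and 59.5% and 10 in the first sets in that order. Distal windows shared with HCT116 had 54.75% and 6, those shared with RKO 49.5% and 7, and all distal windows 45% and 2. Since both core forms contain CpG, base composition moved with the comparison of the forms, and its part in it was not tested.

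The AP-1 motif was more frequent than in the flanks. TGANTCA was present in 52 of 279 windows (18.6%, 14.5 to 23.6), 4.84% of flanks and 11.0% of all regions. It was largely a feature of distal regions, at 45 of 164 (27.4%, flanks 6.10%) against 7 of 115 proximal regions (6.09%, flanks 3.04%). The share exceeded that at HCT116 and H460 only, 8.45%, by 10.2 points (4.56 to 15.9), but among distal regions the difference was 5.49 points (-6.39 to 16.0). Against the pairs with RKO it was 4.95 points (-0.326 to 10.6) over all regions and -4.70 points (-15.0 to 5.52) among distal ones, and against HCT116 and A549 only, at 21.3%, it was -2.70 points (-10.7 to 4.78). Among distal regions the motif was thus not detectably more frequent at lung-only regions. The intervals were wide, and distances within the distal regions were not matched. TGANTCA was found in 47 of the 248 regions with an HRE core and in 5 of the 31 without.

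**Figure D4:**
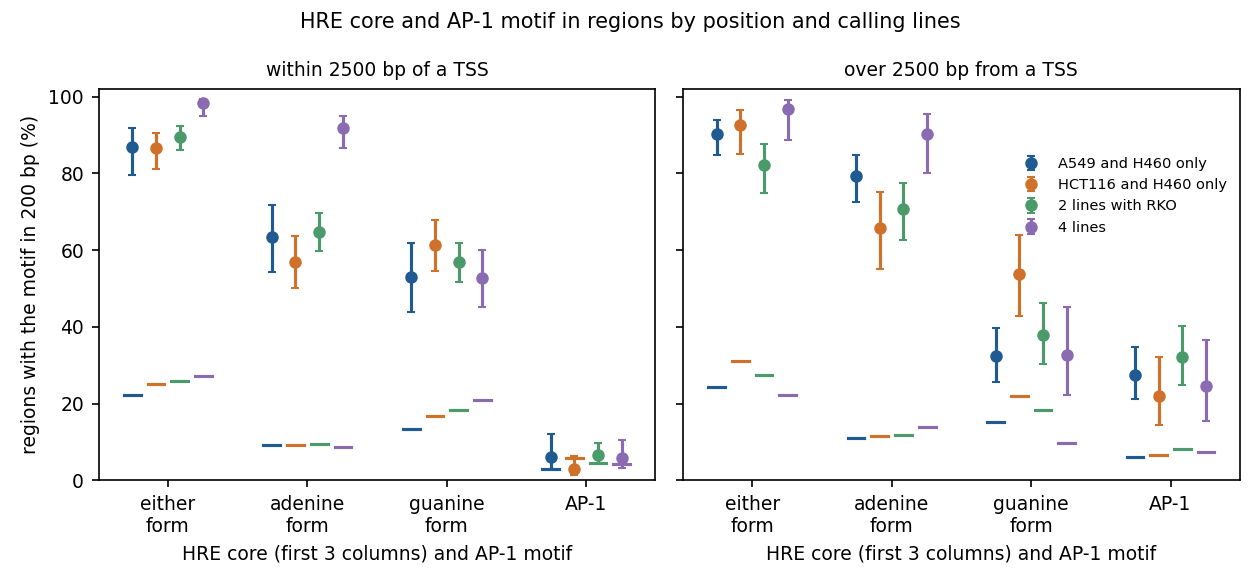
Share of regions (y axis, percent) with an HRE core of either form, its adenine form ACGTG, its guanine form GCGTG and the AP-1 motif TGANTCA in the central 200 bp, for proximal regions (left) and distal regions (right), by calling lines, with Wilson 95% intervals as bars and the share in flanking windows as short horizontal lines. Among distal regions the lung-only set had 79.3% with ACGTG and 32.3% with GCGTG, and 27.4% with the AP-1 motif.

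The GC box GGGCGG, bound by SP factors at CpG-rich promoters, was in 29.7% of lung-only windows, 6.99% of flanks and 18.5% of all regions. It was less frequent than at HCT116 and H460 only (60.9%, a difference of -31.2 points, -38.6 to -23.1), also among proximal regions alone (45.2% against 71.3%, a difference of -26.1 points, -36.6 to -14.8). A GC box was thus present at a smaller share of lung-only proximal regions than of that pair's. Among proximal regions the difference was -15.8 points (-25.8 to -5.34) against the pairs with RKO and -12.4 points (-25.4 to 1.28) against HCT116 and A549 only. Against regions that A549 and H460 shared with HCT116 it was -18.5 points (-31.6 to -4.30), with RKO 3.40 points (-12.4 to 18.5), and with both -20.3 points (-31.3 to -8.55). The part of base composition in this was not tested. TGACNNNGC, bound by NRF2 with a small MAF protein, was in 15.1% (7.35% of flanks, 8.73% of all regions), and it overlaps TGANTCA where the bases allow. The ETS motif CCGGAAG was in 5.38% (1.08% of flanks, 3.32% of all regions). The others were near their flanks: GGAATG of TEAD in 12.9% (10.4%, 11.9% of all regions), AGATAA of GATA factors in 7.89% (7.89%, 10.2%), TGTTTAC of forkhead factors in 3.58% (2.87%, 3.04%), TGTGGTT of RUNX in 3.94% (3.05%, 3.62%), TTTATGG of CDX in 1.79% (3.58%, 2.74%) and GATTGG of NF-Y in 5.38% (5.38%, 5.93%). Motif matches describe these windows and do not show that a factor was bound.

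Normoxia lists were not used to choose the regions. An A549 normoxia peak overlapped 13 of the 279 regions (4.66%, 2.74 to 7.81), against 3.27% of all A549 hypoxia regions, and an H460 normoxia peak overlapped 3 (1.08%, 0.366 to 3.11), against 1.16% of H460 regions. HCT116 had no normoxia peak at any of them, which allows a share of up to 1.08% (3 counts of 279), and RKO had 1, near CDH23 (3.77 tags per 10 M). Binding in normoxia at lung-only regions was thus about as frequent as at the lines' other regions. The normoxia and hypoxia signals are set side by side as a description, because the hypoxia peaks had selected the regions.

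In A549 the hypoxia signal was the higher at 13 of 13 lung-only regions, as it was at 162 of the 175 peaks of the line called in both conditions. The steepest was the region near ENSG00000260237 on chromosome 16, with 5.82 tags per 10 M in normoxia and 52.6 in hypoxia (24 and 245 tags, log2 ratio 3.18). RPH3AL held 7.76 and 43.8 (log2 ratio 2.50), DUSP12 6.79 and 35.2 (2.37) and ISCA1 6.55 and 31.4 (2.26). SIAH1, a ubiquitin ligase gene, had 5.33 in normoxia and 24.1 in hypoxia at a region 14048 bp upstream, and the region in HOOK2 near JUNB, an AP-1 subunit gene, had 3.88 and 17.2. The 4 regions near NTMT1, BRINP3, BCL2A1 and IGFBP3 held between 3.64 and 6.3 tags per 10 M in normoxia and between 9.23 and 20.0 in hypoxia. LBH had the highest normoxia signal of the 13, 17.2, against 26.2 in hypoxia (log2 ratio 0.61). The conditions were closest in PPM1H, at 8.49 and 11.2 (log2 ratio 0.40), and near NFE2L3, at 6.06 and 7.95 (0.39).

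In H460 the hypoxia signal was higher at 3 of 3 lung-only regions, as it was at all 45 peaks of the line called in both conditions. PPM1H held 13.7 tags per 10 M in normoxia and 67.3 in hypoxia (73 and 333 tags, log2 ratio 2.30). It was the only region with a normoxia peak in both lung lines, and its signal was 6.01-fold higher in H460 than in A549 in hypoxia. A region within the UGT1A cluster of glucuronosyltransferase genes, 8718 bp downstream of the start of UGT1A6, held 4.88 and 34.0 (log2 ratio 2.80). NR2F1, an orphan nuclear receptor gene, held 4.32 and 7.28 (log2 ratio 0.75). Peaks were 118 bp wide in H460 normoxia and 146 bp in hypoxia, and per bp the log2 ratios were 1.99, 2.49 and 0.45. In A549 the widths were 144 and 140 bp. An exact two-sided binomial test on the merged libraries, with Benjamini-Hochberg adjustment over the peaks called in both conditions, called 11 of the 13 regions higher in hypoxia in A549, against 73.1% of these peaks (7 with a local fold of at least 6 in both lists), and 2 of the 3 in H460, against 82.2%. Nothing is read from these calls, since the hypoxia tags they use are those of the peaks that selected the regions.

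**Figure D5:**
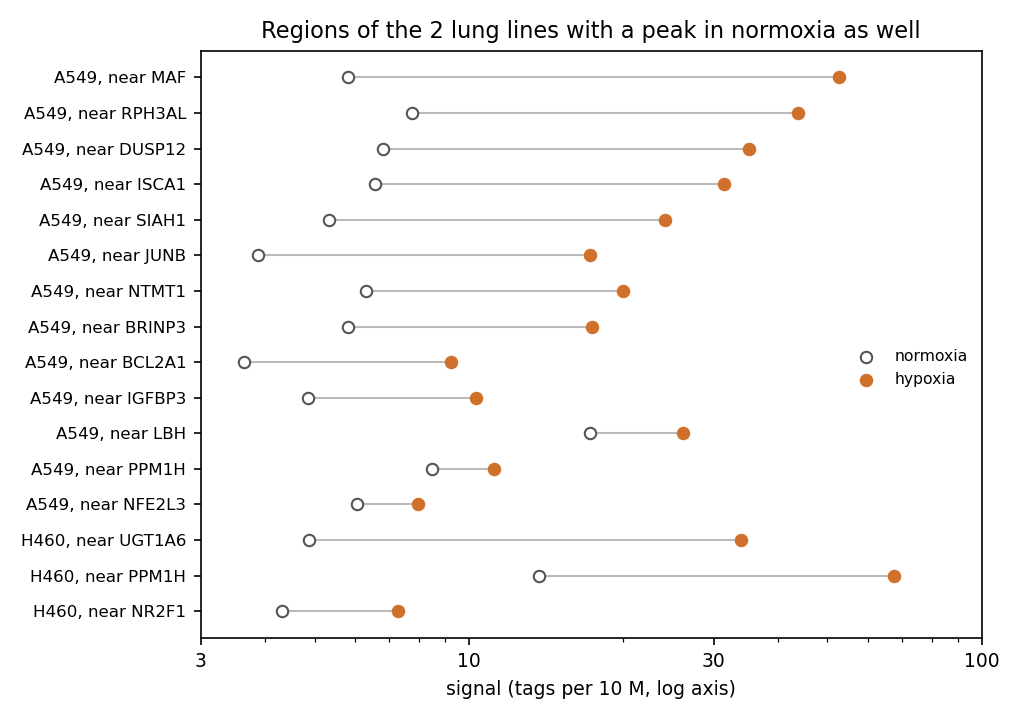
Normoxia and hypoxia signal (x axis, tags per 10 M, log axis) at the 13 lung-only regions with an A549 normoxia peak and the 3 with an H460 normoxia peak, named by the nearest protein-coding gene. Open circles are normoxia and filled circles hypoxia, and hypoxia was the higher in 13 of 13 regions in A549 and 3 of 3 in H460.

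Genes of 7 lists, 170 in all, were then looked up. None had a lung-only region within 2500 bp of its TSS, against 0.423% of all genes, and 7 had one within 50000 bp (4.12%), against 1.99% of all genes. The list of glycolysis and glucose uptake, whose 24 genes include well-known HIF1A targets, gave 2. SLC2A1, which encodes the glucose transporter GLUT1, had its region 3916 bp upstream (24.5 in A549 and 44.3 in H460), with colon-line peaks 4349 bp (HCT116) and 4342 bp (RKO) away. HK1, a hexokinase gene, had one in an intron 48577 bp from its start (26.8 and 15.2) with 4 cores. Of the 24 genes, 13, among them HK2, ENO1, LDHA and PDK1, had a region called in A549 and H460 within 2500 bp, whichever colon lines also called it, against 1.55% of all genes.

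Of the 35 genes of oxygen sensing and the HIF pathway, DDIT4, an inhibitor of mTORC1 signalling, was the one with a lung-only region, 3064 bp downstream of its start (26.0 and 42.1), and an HCT116 peak lay 176 bp from it. A region called in A549 and H460 was within 2500 bp of the TSS of 12 of the 35, against the same 1.55%. The AP-1 and TEAD-YAP list of 20 genes gave 3, which were FOS, JUNB and AXL. The FOS region, 23777 bp upstream (9.02 and 12.5), had an RKO peak 4195 bp away. That of JUNB, 4782 bp downstream within HOOK2 (17.2 and 17.6), had an HCT116 peak 2050 bp away. AXL, a receptor tyrosine kinase gene, had its region in its intron 7416 bp downstream (19.5 and 8.29), with an HCT116 peak 222 bp away. The matrix and adhesion list of 25 gave ITGA5, an integrin gene, 36198 bp from a region in an intron of ZNF385A (4.51 and 11.1). The 30 NRF2 targets, the 20 genes of lung epithelium and the 16 of colon epithelium gave 0 within 50000 bp. A region called in A549 or H460 lay within 2500 bp of 7 of the 20 lung epithelium genes and 4 of the 30 NRF2 targets, against 10.3% of all genes, and a region called in both lines lay there for 0 of the 20 and 0 of the 30, against 1.55%.

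Some further regions outside the naming rule were named after their values were seen. PLIN2, a lipid droplet coat gene, had 18.0 and 19.8 at a region 13755 bp upstream, OSMR, a cytokine receptor gene, 22.1 and 21.8 in its UTR, and PDGFB, a growth factor gene, 34.8 and 19.0 at 7351 bp upstream. VEGFC, a lymphatic growth factor gene, had 4.29 and 4.45 at 1492 bp upstream, below the first quartile of the lung-only regions in both lines (4.94 and 5.66).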

How the data were processed

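The series held 16 HIF1A ChIP libraries, 2 for each of 4 lines in normoxia and hypoxia, and 4 input libraries, grouped by sample title. The authors trimmed and aligned the reads to GRCh37 (hg19), and the submitters' processing notes name Bowtie2 2.2.9, SAMtools 1.3.1, Picard 1.129, FastQC 0.11.5 and HOMER 4.3. The 2 replicates of each line and condition were then merged by the authors, who called peaks against the input with HOMER (8 lists, per the file headers), with a local fold of 3, a false discovery rate of 0.001 and a p-value against input of 0.001.

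The deposited signal is the number of tags per 10 M in the library, with 1 M standing for 1000000. The deposited ratio columns hold the fold over input and the fold over the surrounding 10000 bp, which served to describe and filter peaks. The p-value, score and shape columns were not used. Unscaled tags were computed as the signal times the header total, which was 46.6 M in A549 hypoxia, 41.2 M in A549 normoxia, 49.5 M in H460 hypoxia and 53.3 M in H460 normoxia. The libraries of HCT116 held 81.5 M and 69.2 M and those of RKO 66.9 M and 45.1 M tags. At these depths the weakest A549 and H460 hypoxia peaks held 11 and 13 tags. Scaling to depth does not correct for immunoprecipitation efficiency or peak width.

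Peaks were joined where they shared at least 1 bp, the end base not counted. A region's window was the 200 bp at the mean of the A549 and H460 peak centres (of all its peak centres for other sets), with flanks 2000 bp to either side. TSS were those of 38865 genes of GENCODE release 44 on GRCh37, and distances are negative upstream. Shares carry Wilson and differences Newcombe 95% intervals over regions, which are not replicates. Python 3.11.15, numpy 2.4.6, scipy 1.17.1, pysam 0.24.0 and matplotlib 3.10.9 were used. The tests were checked on simulated counts, which had neither variation between replicates nor selection on hypoxia peaks.

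The regions, lists and tests were chosen with earlier results of these data known. Regions named were the 12 with the best mean signal rank over the A549 and H460 lists, the next to make up 6 proximal and 6 distal ones, those with a normoxia peak in both lung lines, those near listed genes, and those nearest to the thresholds; the others named were chosen after their values were seen. Of these, 1 region and the sequence of 1 other are not reported here. Alternatives changed the thresholds, the overlap, the window, the TSS set and distance, and the use of normoxia lists. A count of the end base in the overlap, and the exclusion of members with a colon-line peak within 1000 bp, were added after seeing the data.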

Additional observations from a re-analysis of the deposited data

How the results depend on the processing

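No paired analysis was possible because peaks had been called on merged replicates, and for the same reason no replicate could be left out. The alternatives gave between 217 and 416 lung-only regions, against 279. With a local fold of at least 6 there were 264 (228 shared with the 279) and with an input fold of at least 14 in all 4 lists 416 (257 shared). The 2 alternatives added after seeing the data gave 280, with the end base counted, and 260, without members near a colon-line peak. Of 96 alternative values for 16 results, main values not included, 13 moved, 2 reversed, 3 were no longer distinct from 0 and 3 became so.

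A local fold of at least 6, a fold of at least 14 and removal of the weakest 25% of A549 and H460 peaks raised the median signal in A549 (9.99, 11.0 and 10.3) and H460 (11.6, 12.5 and 12.7). The share within 2500 bp of a TSS was 51.7% with a fold of at least 14 and 52.0% with all transcript starts, and 31.5% lay within 1000 bp. The core share was 92.6% without the weakest 25% and 83.2% in a 100 bp window, where TGANTCA was in 10.4%. With a local fold of at least 6 in both lists, 7 A549 regions were called higher in hypoxia.

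The difference in TGANTCA from HCT116 and H460 only was 5.74 points with a fold of at least 14, 4.41 in a 100 bp window and 5.49 among distal regions, with intervals that included 0. The core difference from the pairs with RKO was 6.77 points in a 100 bp window and 8.10 among distal regions, and the TGANTCA difference from these pairs 7.09 points with a local fold of at least 6, with intervals above 0. Among distal regions the core difference from HCT116 and H460 only reversed to -2.44 points and the TGANTCA difference from the pairs with RKO to -4.70 points, both with intervals that included 0. The cause was not tested for any of these.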
